A study of Mus musculus with 21 samples.

Results

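Genes that fill, guard and empty the fat droplet of a cell were followed through brown fat and muscle, and all 10 of the chosen genes were found among the 28541 gene models counted. The rule that chose them names each symbol by its role and uses no measured value, though earlier results of these data were known when it was written. Pnpla2, Lipe and Mgll encode the lipases that act in turn on triglyceride, diglyceride and monoglyceride. Abhd5 encodes the protein that activates PNPLA2, and G0s2 one that inhibits it. Plin1, Plin5 and Cidec encode proteins of the droplet surface. Fabp4 encodes a carrier of the fatty acids that lipolysis releases, and Aqp7 a channel for the glycerol.

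In a resting fat cell PLIN1 coats the droplet and holds ABHD5, so that PNPLA2 works slowly. When noradrenaline raises cyclic AMP, protein kinase A phosphorylates PLIN1 and LIPE, ABHD5 is set free, and the droplet is broken down from its surface. Brown fat burns the released fatty acids for heat, whereas PLIN5 ties droplets to mitochondria in tissues that oxidise fat, such as brown fat and muscle, and CIDEC lets droplets fuse into larger ones.

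The counts came from 21 libraries of ribosome-depleted total RNA of whole mouse tissue. Brown adipose tissue (BAT) had 5 floxed and 6 BATI4KO libraries, and white vastus lateralis (WV), the pale fast-contracting part of a thigh muscle, had 5 of each. Floxed mice were littermate controls carrying loxP sites, and BATI4KO is taken from knowledge of the study as deletion of the transcription factor gene Irf4 in brown adipocytes by a Cre under the Ucp1 promoter. The labels give no age, sex, housing temperature, feeding state or deleted exons, and do not say whether each library is 1 mouse, so p-values measure the spread between libraries. In BAT, a short number (1, 2 or 3) stands in the title of 3 libraries of either genotype. All other titles carry a longer tag, such as FX_5503 for floxed or KO_5492 for BATI4KO, and 4 of these tags occur in both tissues.

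Library totals ran from 20219479 to 41773148 counts in BAT and from 30479508 to 40328627 in WV. Irf4 was at 18.3 to 43.5 CPM (counts divided by library size in units of 1e6, with library sizes scaled by TMM over all 21 libraries) in floxed BAT and at 4.91 to 5.95 CPM in BATI4KO BAT, a log2 difference of -2.45 (SE 0.24; edgeR adjusted p = 0.0026). Ucp1, which uncouples brown fat mitochondria, ran from 1015 to 5834 CPM in BAT and reached at most 0.41 CPM in WV. Summed over 9 skeletal muscle markers, such as Acta1 and Ckm, WV had 232600 to 528500 CPM. BAT carried some of these transcripts too, 123.7 to 926.5 CPM in floxed and 497 to 14560 CPM in BATI4KO libraries, the highest in BATI4KO library 3, and none of the 9 markers was at 0 throughout a group. In whole tissue, fewer cells of a type and less RNA per cell cannot be told apart.

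Promoters of the members, 250 bases before to 50 after the start of transcription, were taken from RefSeq on GRCm38.p6, where 9 of the 10 genes had an entry and together 14 promoters. The promoters of 2 members are shown in full because the levels of these genes lie at the extremes: per kilobase, Pnpla2 has the highest level of the 3 lipases in both tissues, and Plin1 is the member that differs most between them. The Pnpla2 promoter lies at chr7:141454938-141455237, plus strand, and the Plin1 promoter at chr7:79732727-79733026, minus strand. Capitals mark matches to the motifs described next, and each sequence reads 5′ to 3′ along the gene.
Pnpla2: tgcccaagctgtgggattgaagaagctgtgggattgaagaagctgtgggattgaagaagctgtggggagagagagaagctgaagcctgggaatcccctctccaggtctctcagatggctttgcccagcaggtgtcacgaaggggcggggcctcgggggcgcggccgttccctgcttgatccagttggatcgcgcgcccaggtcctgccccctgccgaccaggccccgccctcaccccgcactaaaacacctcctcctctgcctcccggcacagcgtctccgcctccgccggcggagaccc
Plin1: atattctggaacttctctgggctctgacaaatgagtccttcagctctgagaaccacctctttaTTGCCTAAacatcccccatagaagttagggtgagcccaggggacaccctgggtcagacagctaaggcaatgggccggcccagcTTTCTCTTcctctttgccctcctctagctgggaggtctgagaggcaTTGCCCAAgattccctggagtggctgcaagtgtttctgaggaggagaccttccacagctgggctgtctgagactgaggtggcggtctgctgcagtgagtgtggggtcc
Because Irf4 is the deleted gene, the promoters were searched on both strands for AANNGAAA, a core of sites bound by interferon regulatory factors. It was found in 23.9% of 32851 mouse promoters of this length and in 4 of the 14 promoters of members, those of Plin1 and G0s2 and a promoter each of Plin5 and Aqp7. In the Plin1 sequence it reads on the opposite strand as TTTCTCTT, from position -104 to -97, where -1 is the last base before the start. The letters were absent from the windows of Pnpla2, Lipe, Mgll, Abhd5 and Cidec. TTGCNNAA, a core bound by C/EBP factors of fat cells, occurred at 2 places in the Plin1 promoter (TTGCCTAA from -187 and TTGCCCAA from -58) and once in a Cidec promoter, against 10.8% of all promoters. AGGTCA, the half-site of nuclear receptors, was found in the promoter of Abhd5 and in both promoters of Aqp7 and of Plin5, against 16.3% of all promoters. These percentages count promoters, not genes, and some members have 2 promoters. A TATAAA on the sense strand, present in 8.32% of promoters, was in none of the 14. A match describes the letters only.

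All 10 members were higher in BAT than in WV, in floxed and in BATI4KO mice alike. Their transcripts took 0.883% to 1.17% of the counts of a BAT library and 0.0194% to 0.0405% of those of a WV library. The median log2 difference over the members was 4.51 in floxed and 4.63 in BATI4KO mice, where the median over all tested genes was 0.14 and 0.16. In edgeR's quasi-likelihood test over 16632 genes, with Benjamini-Hochberg adjusted p under 0.05, 36.9% of all genes were higher in BAT in floxed mice and 39.5% in BATI4KO mice. The libraries of the tissues did not overlap for 9 of the members, Abhd5 being the exception. How many of all genes were without overlap was not counted, but 69.8% passed in either direction in floxed and 73.3% in BATI4KO mice. The size of these differences moved with scaling. With library totals in place of TMM the median over all genes moved to 0.91 and 1.18, and the genes higher or lower in floxed mice went from 6144 and 5470 to 10324 and 2671.

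**Figure D1:**
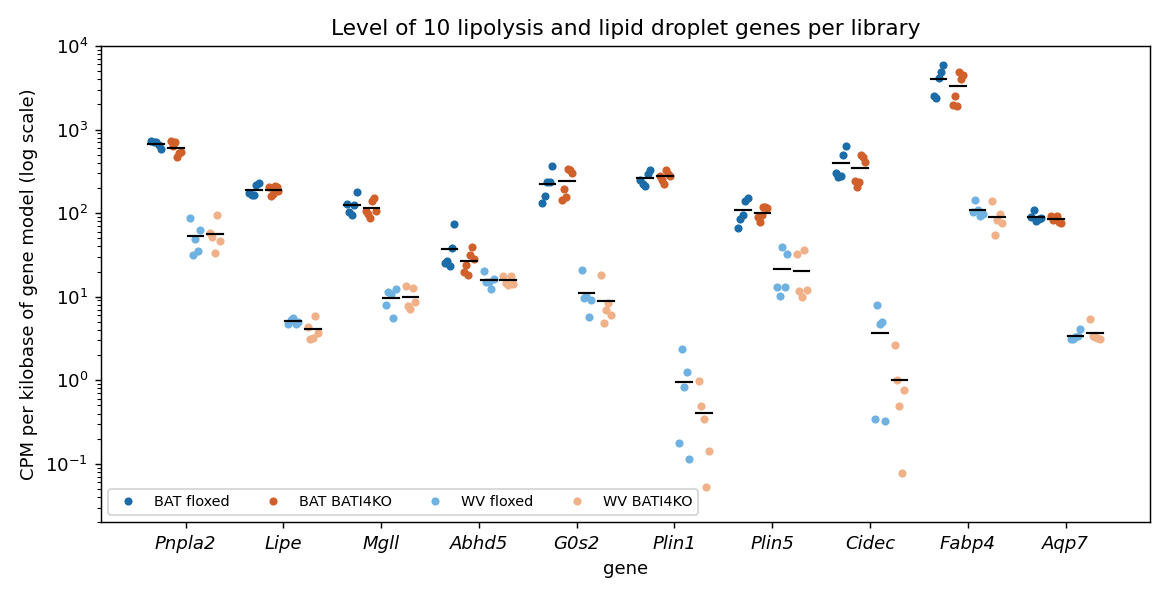
Level of each gene in each library, in CPM per kilobase of gene model on a log axis; points are libraries (5 floxed and 6 BATI4KO of BAT, 5 of each genotype of WV) and black lines are group means. The BAT means lie above the WV means for all 10 genes, by the widest gap for Plin1 and Cidec and the narrowest for Abhd5, whose ranges overlap.

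Among the lipases, Pnpla2, which starts lipolysis, was at 2004, 1900, 1907, 1762 and 1591 CPM in floxed BAT and at 236.4, 84.7, 132.4, 96.3 and 170.1 CPM in floxed WV. In BATI4KO mice its BAT libraries ran from 1260 to 1989 CPM with a median of 1577, and its WV libraries were at 157.3, 138.9, 91.6, 257.8 and 126.1 CPM. The BAT libraries thus lay close together, with an SD of 14.9% of the mean over all 11, while the WV libraries spread more widely (SD 39.4% of the mean over 10). The tissue difference was 12.6-fold in floxed mice (log2 3.65, SE 0.30; edgeR adjusted p = 2.57e-10) and 10.4-fold in BATI4KO mice (log2 3.38, SE 0.29; edgeR adjusted p = 5.07e-10).

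Lipe, the hormone-sensitive lipase, differed more and with less spread in muscle. It was at 769.7 ± 125.8 CPM in floxed BAT and 20.5 ± 1.54 CPM in floxed WV (SD, n = 5 each), 37-fold higher in BAT (log2 5.21, SE 0.20; edgeR adjusted p = 1.38e-15). In BATI4KO mice it was at 763.8 ± 83.3 CPM (SD, n = 6) and 16.4 ± 4.63 CPM (SD, n = 5), a 46-fold difference (log2 5.52, SE 0.20; edgeR adjusted p = 5.41e-16). Mgll, which removes the last fatty acid, kept 7.66% of its floxed BAT level in floxed WV and 8.65% in BATI4KO mice, close to the 7.86% and 9.53% of Pnpla2. For Lipe the shares were 2.66% and 2.15%. Lipe and Mgll share 861 and 152 exon bases with genes on the opposite strand (4732471J01Rik and Gm26588), and the counting does not state strand, so part of their counts could come from these.

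The regulators of PNPLA2 were both higher in BAT, but by unlike amounts. Abhd5, the activator, was the member most alike between tissues, at 89.2, 94.9, 83, 135 and 261.1 CPM in floxed BAT and 72.9, 53, 52.9, 44.5 and 57.2 CPM in floxed WV. BATI4KO BAT ran from 64.1 to 139.9 CPM with a median of 92.7, and BATI4KO WV was at 63.1, 52.3, 49.3, 62.4 and 51 CPM. The lowest BAT libraries thus reached the highest WV libraries, and 1 floxed BAT library, FX_5503, stood far above the rest. The test still gave a higher level in BAT, 2.32-fold in floxed (log2 1.21, SE 0.26; edgeR adjusted p = 0.000252) and 1.7-fold in BATI4KO mice (log2 0.76, SE 0.25; edgeR adjusted p = 0.00832). Abhd5 shares 950 exon bases with A730085K08Rik on the other strand. G0s2, the inhibitor, was 19.9-fold higher in BAT in floxed mice (log2 4.31, SE 0.41) and 27.1-fold in BATI4KO mice (log2 4.76, SE 0.41), with WV at 4.03 to 17.8 CPM over 10 libraries.

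Of the droplet coat proteins, Plin1, the gatekeeper of the fat cell droplet, showed the widest gap. It was at 828.5, 749.7, 714.4, 988.3 and 1084 CPM in floxed BAT, and at 0.587, 7.96, 2.78, 4.18 and 0.377 CPM in floxed WV. BATI4KO BAT ran from 748.4 to 1101 CPM with a median of 927.8, and BATI4KO WV was at 3.29, 1.65, 1.16, 0.177 and 0.483 CPM. The muscle values rest on 4 to 233 counts a library, with an SD of 107.1% of the mean over 10 libraries, and only Cidec (115.1%) spread as widely. The tissue difference was 266-fold in floxed mice (log2 8.05, SE 0.70; edgeR adjusted p = 8.98e-10) and 654-fold in BATI4KO mice (log2 9.35, SE 0.74; edgeR adjusted p = 1.65e-10).

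Cidec followed the same order, at 106-fold (log2 6.73, SE 0.79) and 334.6-fold (log2 8.39, SE 0.85), with 3 to 396 counts in a WV library. Without the WV library KO_5492 the log2 difference in BATI4KO mice was 9.18 for Cidec and 10 for Plin1, and without FX_5415 that of Plin1 in floxed mice was 8.66. In floxed mice limma voom gave 8.70 for Plin1 and 7.47 for Cidec. Plin5, the coat protein of oxidative tissues, was only 4.9-fold higher in BAT in either genotype (log2 2.29, SE 0.39 in each). Its WV libraries fell into a lower and an upper range. Floxed WV was at 26.9, 21, 80, 26.6 and 65.2 CPM and BATI4KO WV at 66.1, 24.2, 20.5, 74 and 24.5 CPM, so that 2 libraries of each genotype lay above 65 CPM and 3 of each below 27 CPM.

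The carriers resembled Lipe. Fabp4, the fatty acid carrier, was at 2543 ± 976.9 CPM in floxed BAT and 69.5 ± 12.6 CPM in floxed WV (SD, n = 5 each), 36-fold apart (log2 5.17, SE 0.36; edgeR adjusted p = 2.24e-11). In BATI4KO mice it was again 36.1-fold apart (log2 5.17, SE 0.36). Aqp7, the glycerol channel, was the steadiest member in BAT, at 192.2 to 282.1 CPM over the 11 libraries, and was 26.2-fold (log2 4.71, SE 0.17) and 22.6-fold higher there (log2 4.50, SE 0.16).

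Per kilobase of gene model, which allows genes to be compared, the order in floxed BAT was Fabp4, Pnpla2, Cidec, Plin1, G0s2, Lipe, Mgll, Plin5, Aqp7 and Abhd5, and it was the same in BATI4KO BAT. Levels ran there from 3968 ± 1524 CPM per kilobase for Fabp4 and 674.5 ± 58.9 for Pnpla2 down to 37.3 ± 21 for Abhd5 (SD, n = 5). The ranges of libraries separated Fabp4 from Pnpla2 and Aqp7 from Abhd5 in both genotypes, and Lipe from Mgll in BATI4KO mice. All other neighbours overlapped. In floxed WV the order was Fabp4, Pnpla2, Plin5, Abhd5, G0s2, Mgll, Lipe, Cidec, Aqp7 and Plin1, from 108.4 ± 19.7 down to 0.949 ± 0.927 CPM per kilobase. Only Fabp4 and Pnpla2, and Aqp7 and Plin1, were neighbours without overlap there. Muscle thus ranked the coat protein Plin5 and the activator Abhd5 directly after Pnpla2, while Plin1 came last. In BATI4KO WV Mgll stood before G0s2 and Aqp7 before Cidec, and the neighbours without overlap were Abhd5 and Mgll, and Aqp7 and Cidec.

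Between genotypes, no member passed the test in BAT, so neither the lipases nor the droplet proteins were called changed in BATI4KO brown fat. Of 16051 genes, 0.0436% passed (7 genes). Differences were small: 9 of 10 were negative, with a median log2 of -0.13 against -0.01 over all genes, and 3 had an unadjusted p under 0.05 (2366 of all genes did). Cidec was lower in every BATI4KO library than in every floxed library of the same title style, at 418.8, 349.1 and 408.6 against 516.2, 463.3 and 478.8 CPM with short numbers and at 846.7, 816 and 707.4 against 847.8 and 1099 CPM with long tags. In 1.4% of all genes the BATI4KO libraries lay below the floxed ones in this way, and of the members only Cidec. With long tags alone, Pnpla2, Lipe and Plin5 were also lower in all 3 BATI4KO libraries than in both floxed ones, as were 16.2% of all genes. BATI4KO minus floxed was -0.30 for Cidec on the log2 scale (SE 0.09, 95% interval -0.51 to -0.10; edgeR adjusted p = 0.195). DESeq2 gave -0.32 with a DESeq2 adjusted p of 0.0311, which passes in a test that called 372 genes (2.41% of 15406), and over the other settings and left-out libraries the value ran from -0.36 to -0.16.

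Abhd5 had the largest difference in size (log2 -0.49, SE 0.16, 95% interval -0.84 to -0.14; edgeR adjusted p = 0.208), which was -0.26 without FX_5503 and -0.17 with a score of muscle markers as a covariate. For Fabp4 it was -0.40 (SE 0.16, 95% interval -0.75 to -0.05; edgeR adjusted p = 0.275), and -0.23 without floxed library 3. All 9 muscle markers had positive differences in BATI4KO BAT (median log2 2.69). All 9 had an unadjusted p under 0.05, as had 2366 of all 16051 genes, but none passed. With the muscle score Cidec was at -0.30 and Fabp4 at -0.37. Brown adipocyte markers, of which 5 of 7 had negative differences and none passed, summed to 3162 to 9367 CPM in floxed and 2514 to 6265 CPM in BATI4KO BAT, and their part in these differences was not tested. The lipases differed less, Pnpla2 by -0.16 (95% interval -0.37 to 0.06), Lipe by -0.03 (-0.23 to 0.18) and Mgll by -0.17 (-0.44 to 0.10). G0s2 was at -0.00 (-0.35 to 0.34), Plin1 at 0.05 (-0.15 to 0.25), Plin5 at -0.10 (-0.35 to 0.15) and Aqp7 at -0.09 (-0.29 to 0.10). These 7 intervals all include 0, and the lowest bound is that of Mgll.

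**Figure D2:**
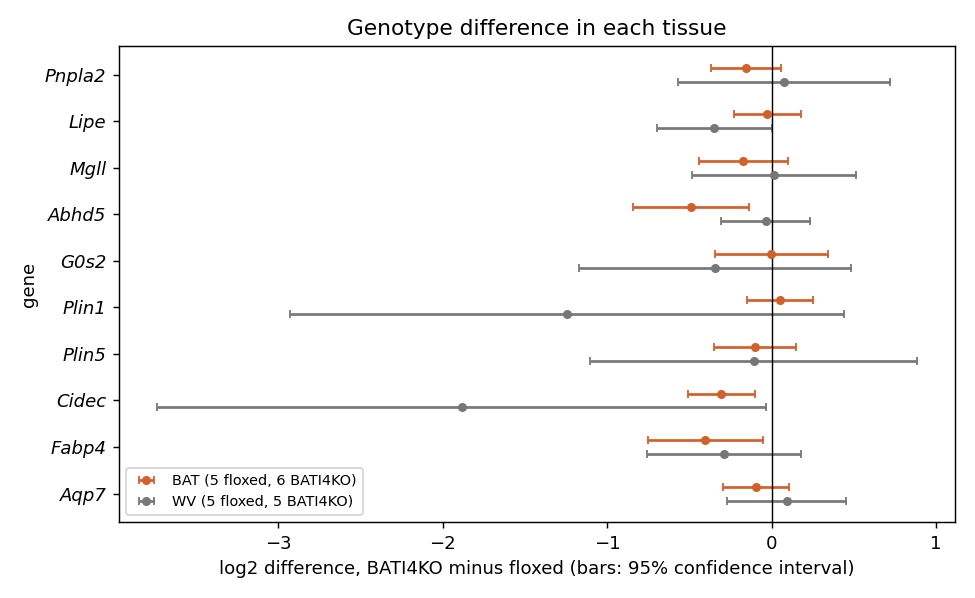
Log2 difference of BATI4KO minus floxed for each gene, in BAT (orange, 5 against 6 libraries) and WV (grey, 5 against 5), with 95% confidence intervals from edgeR. In BAT the intervals of Cidec, Abhd5 and Fabp4 lie below 0 before adjustment, and the WV intervals of Plin1 and Cidec are the widest.

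In WV no member passed either (0.00688% of 14529 genes did, 1 gene, and 1295 had an unadjusted p under 0.05, among them 1 member). Cidec was at 0.587, 13.5, 8, 8.53 and 0.566 CPM in floxed and at 4.54, 1.73, 0.84, 0.133 and 1.3 CPM in BATI4KO libraries. The genotypes overlapped, with 3 floxed libraries above and 2 inside the BATI4KO range. On the log2 scale Cidec differed by -1.89 (SE 0.85; edgeR adjusted p = 0.549) and Plin1 by -1.24 (SE 0.77; edgeR adjusted p = 0.678), and DESeq2 called no member. Without KO_5492 the differences were -2.69 and -1.89, and without FX_5415 they were -1.40 and -0.57. The sum of 8 adipocyte markers that include no member (Adipoq, Cfd, Retn, Lep, Adrb3, Pparg, Tusc5 and Acvr1c) was at 7.92 to 91.3 CPM in floxed and 7.39 to 34.8 CPM in BATI4KO muscle, and the 5 markers tested there all had negative differences that did not pass (median log2 -1.18). With the mean log2 CPM of these markers as a covariate, the Cidec difference was -0.20 and the Plin1 difference 0.37. That mean moved with both genes over the same libraries (Pearson r of 0.93 for Cidec and 0.97 for Plin1). Its part in the genotype differences was not tested. For Lipe the difference was -0.35 (SE 0.16; edgeR adjusted p = 0.567), and the other 7 lay between -0.34 for G0s2 and 0.09 for Aqp7.

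No member passed the test of whether the genotype difference itself differed between tissues, the interaction term, which 0.018% of 16632 genes passed (3 genes; 1766 had an unadjusted p under 0.05), and by DESeq2 none did either. The estimate was largest for Cidec (log2 1.56, SE 0.84; edgeR adjusted p = 0.525) and Plin1 (1.27, SE 0.75; edgeR adjusted p = 0.57). Both moved with single WV libraries: without KO_5492 they were 2.36 and 1.93, and without FX_5415 they were 1.06 and 0.59. Abhd5 had an unadjusted p of 0.0477 (log2 -0.47, SE 0.22; edgeR adjusted p = 0.466).

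Within BAT, the members differed by the style of the library titles in more cases than by genotype, although the labels do not say what the styles stand for. Adjusted for genotype, 8 of 10 members passed, 7 of them lower in the libraries with short numbers. Over all genes 16.4% were lower and 14.9% higher. The median log2 difference over the members was -0.48, against 0.03 over all genes. Lower were Cidec (log2 -0.96, SE 0.09; edgeR adjusted p = 3.54e-05), Fabp4 (-0.92), Abhd5 (-0.85), G0s2 (-0.83), Plin5 (-0.55), Mgll (-0.41) and Plin1 (-0.30). Pnpla2 alone was higher (log2 0.38, SE 0.10; edgeR adjusted p = 0.0121). Lipe was at -0.22 (edgeR adjusted p = 0.0897) and Aqp7 at 0.14 (edgeR adjusted p = 0.258).

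Fabp4 shows the size of this difference: short-numbered libraries ran from 1213 to 2662 CPM with a median of 1567, and long-tagged ones were at 3137, 3784, 3164, 2565 and 2849 CPM. The styles overlapped there through floxed library 3 alone. They did not overlap at all for Abhd5, G0s2, Plin1, Plin5 and Cidec, as in 16.2% of all genes. Pnpla2 went the other way, at 1705 to 2004 CPM (median 1904) with short numbers and 1762, 1591, 1260, 1414 and 1448 CPM with long tags.

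The summed brown adipocyte markers (Ucp1, Cidea, Dio2, Prdm16, Ebf2, Elovl3 and Cpt1b) differed by style in the same direction, at 2514 to 4258 CPM with short numbers and 4561 to 9367 CPM with long tags, while the adipocyte markers overlapped, at 1845 to 2996 and 2309 to 3098 CPM. Taken singly, 5 of the 7 brown adipocyte markers passed as lower with short numbers and 1 as higher. Of the 8 adipocyte markers 1 passed as lower and 0 as higher, where 16.4% of all genes were lower and 14.9% higher. The part of these markers in the members' differences was not tested. Within BATI4KO libraries alone 6 members passed, as did 19% of 15916 genes. Within floxed libraries alone, with 3 against 2, Abhd5 and Cidec passed, as did 4.04% of 16231 genes. These were 2 fits chosen after the data were seen. All 10 differences kept their direction in both. The calls of Mgll and Plin1 were lost with upper-quartile scaling or library totals. They were also lost without FX_5503, KO_5414, KO_5492, floxed library 2 or BATI4KO library 3 in turn, and Lipe passed without BATI4KO library 1.

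**Figure D3:**
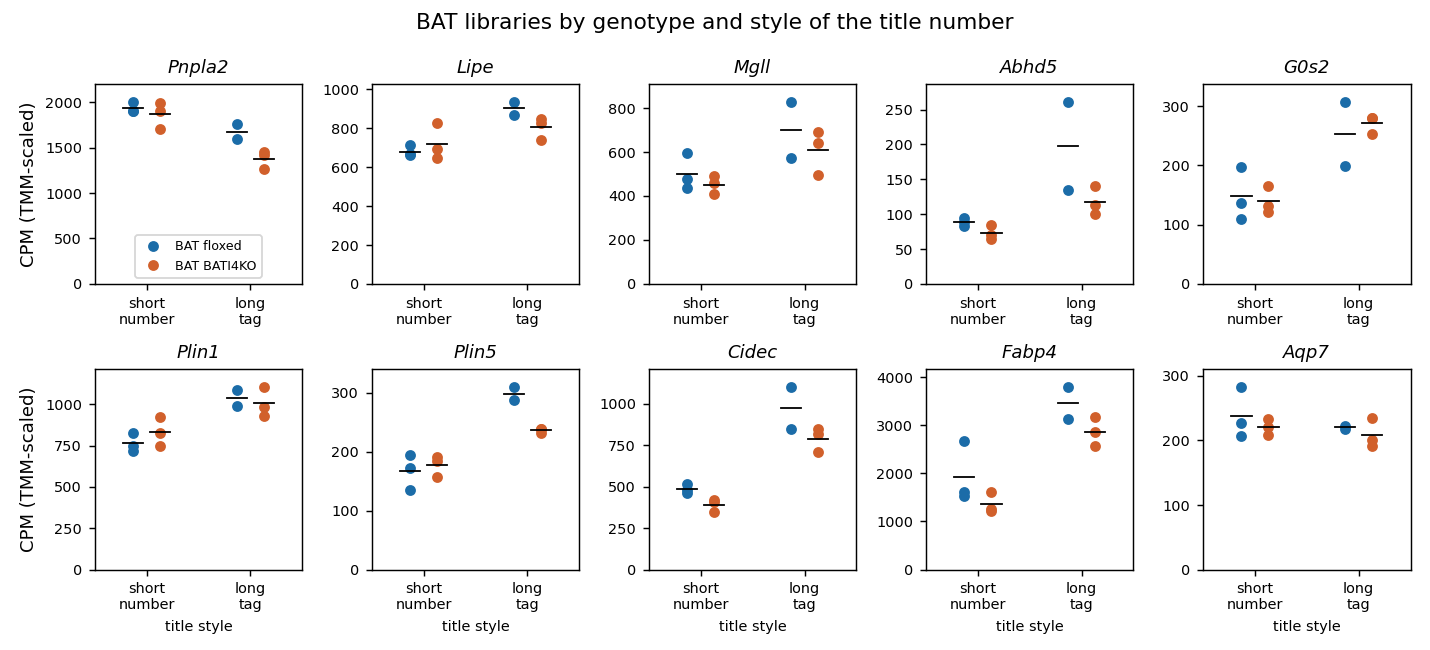
CPM of each gene in the 11 BAT libraries split into short-numbered and long-tagged titles and by genotype (blue floxed, orange BATI4KO); points are libraries, black lines group means, and axes start at 0. Cidec, Abhd5, G0s2, Plin1 and Plin5 are lower in all 6 short-numbered libraries and Pnpla2 tends higher; among long tags all BATI4KO libraries lie below both floxed ones for Pnpla2, Lipe, Plin5 and Cidec.

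In muscle, the levels of Plin1 and Cidec moved with the transcripts of fat cells from library to library. Against the adipocyte score (the mean log2 CPM of the 8 markers), Plin1 had a Pearson r of 0.97 over 10 libraries (permutation p = 1e-05, the smallest the 100000 resamples can give, two-sided, Benjamini-Hochberg adjusted 0.0001 over 10 relations) and a Spearman rho of 0.99 (permutation p = 1e-05, adjusted 0.0001). For Cidec r was 0.93 (permutation p = 0.00014, adjusted 0.0007) and rho 0.92 (permutation p = 0.00048, adjusted 0.0024). Without the 2 libraries farthest from the median score, FX_5415 and FX_5503, r was 0.96 and 0.91. Within floxed libraries it was 0.99 for Plin1 and 0.96 for Cidec, and within BATI4KO libraries 0.96 and 0.84, with 5 libraries each.

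None of the other 8 members passed. Fabp4, which capillary endothelium also makes, had an r of 0.52 (permutation p = 0.125, adjusted 0.313), and Pnpla2 one of -0.65 (permutation p = 0.0417, adjusted 0.139; rho -0.61, permutation p = 0.0662, adjusted 0.221), which was -0.37 without the 2 farthest libraries. Lipe was at 0.22, Mgll at -0.00, Plin5 at -0.16, Abhd5 at -0.35, G0s2 at 0.06 and Aqp7 at 0.09. Some of these differed within the genotypes, with 5 libraries each. Within floxed and BATI4KO libraries in turn, r was -0.93 and -0.24 for Pnpla2, -0.50 and 0.59 for G0s2 and -0.55 and 0.87 for Aqp7. Relative to BAT of the same genotype, floxed muscle held on average 0.364% of Plin1, 0.917% of Cidec and 2.66% to 42.3% of the 8 others. The 8 adipocyte markers ran there from 0.605% for Adrb3 to 16% for Lep, a range that lies above Plin1, holds Cidec and overlaps the 8 others. Lep itself ran from 0% to 47.7% over the 5 floxed libraries. In BATI4KO muscle the shares were 0.147% for Plin1, 0.289% for Cidec, 2.15% to 58.3% for the 8 others and 0.241% (Adipoq) to 2.38% (Lep) for the markers.

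**Figure D4:**
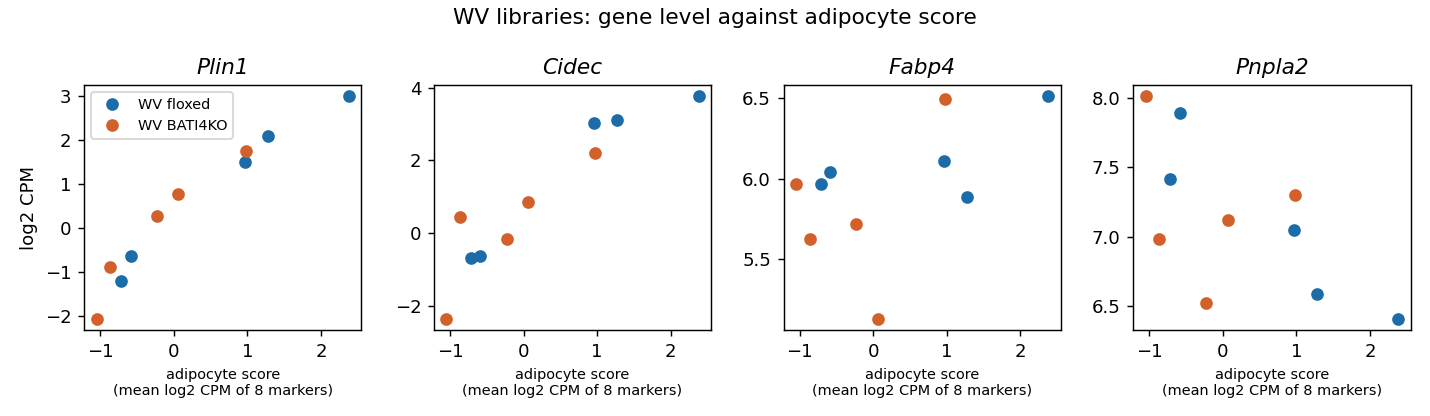
Log2 CPM of 4 genes against the adipocyte score (mean log2 CPM of 8 markers) in 10 WV libraries, blue floxed and orange BATI4KO. Plin1 (r = 0.97) and Cidec (r = 0.93) rise with the score, while the relations of Fabp4 (r = 0.52) and Pnpla2 (r = -0.65) did not pass.

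Among the genes whose log2 CPM was most like that of Pnpla2 over the 10 WV libraries were Immt, Hspa9, Tufm and Clpb, with a Pearson r of 0.97 to 0.98 among 9536 genes of at least 5 CPM. Those most like Plin1 were Cfd (0.96), Cyp2e1 (0.92), Tkt (0.92), Arl13b (0.90) and Dhx15 (0.88). Cfd, the secreted protease adipsin, is also 1 of the 8 markers of the score. Over the 11 BAT libraries, Ulk1, 2810046L04Rik, AK149278, mt-Nd4 and Arnt were most like Pnpla2 (0.96 to 0.97), and Tecr, Pmf1, Kcns3, Usp5 and Flii most like Plin1 (0.94 to 0.96). These are descriptions over libraries of both genotypes and, in BAT, of both title styles, without adjustment for either.

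Other genes of the pathway did not all follow the 10 members between tissues. Of 9 other lipases, 7 were higher and 1 lower in BAT of floxed mice (median log2 3.18), with Pnpla3 (4.56) and the lysosomal lipase Lipa (3.18) higher and the diglyceride lipase Daglb lower (-1.62). Of 10 other droplet coat proteins 6 were higher and none lower (median 1.08), led by Cidea, the brown fat relative of Cidec (10.70), Plin2, which coats droplets in most cells (3.79), and Hsd17b11 (1.69). Of 8 droplet formation genes 5 were higher and 2 lower (median 0.77). Here Bscl2, the seipin gene (3.48), and Cav1 (2.51) were higher and Fitm1, the muscle form of the fat storage-inducing proteins, was far lower (-9.46). Of 8 tested carriers and glycerol enzymes 5 were higher and none lower (median 2.49), with Gyk, the glycerol kinase (7.77), Acsl1, which activates fatty acids (2.80), and Gpd1 (2.51). In BATI4KO mice 7, 7, 4 and 6 were higher and 2, 0, 3 and 0 lower in these lists in turn. Of all 16632 tested genes, 6144 were higher and 5470 lower in floxed mice, 69.8% in all. In BATI4KO mice 6568 were higher and 5617 lower, 73.3% in all.

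No gene of these 4 lists passed between genotypes in either tissue or by the interaction. In BAT, 3 of 9 other lipases, 3 of 10 coat proteins and 4 of 8 formation genes had an unadjusted p under 0.05. Over all genes in BAT, 2366 of 16051 did. The carriers there had the lowest median, -0.44, with 7 of 8 negative and 5 at an unadjusted p under 0.05. Gyk, which returns glycerol to triglyceride, missed the threshold at -0.98 on the log2 scale (SE 0.22; edgeR adjusted p = 0.143). The smallest p of the other lists belonged to Fitm2 (-0.34, edgeR adjusted p = 0.185), Plin2 (-0.53, edgeR adjusted p = 0.224) and Ces1d (-0.30, edgeR adjusted p = 0.257). The medians were -0.04 for other lipases, -0.14 for other coat proteins and -0.13 for droplet formation. In WV the smallest p of each list were those of Ces1d (-0.76, edgeR adjusted p = 0.367), Plin4 (-0.61, edgeR adjusted p = 0.466), Lpcat3 (0.24, edgeR adjusted p = 0.595) and Aqp1 (-0.29, edgeR adjusted p = 0.7).

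By title style in BAT, each of these lists had more genes lower than higher, where 16.4% of all genes were lower and 14.9% higher. In the short-numbered libraries 3 of 9 other lipases were lower and none higher, 4 of 10 coat proteins lower and 1 higher, 4 of 8 droplet formation genes lower and 1 higher, and 5 of 8 carriers lower and none higher. Cidea was lower by the largest amount among those named (log2 -1.03, SE 0.11; edgeR adjusted p = 8.55e-05), with Fabp5 (-0.93) and Plin2 (-0.82). Rab18, a small GTPase of the droplet surface, was higher (0.67).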

How the data were processed

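Raw read counts of both tissues were deposited as whole numbers beside a symbol and a length for every gene model, per the file headers. The submitters' processing notes name mm9, edgeR, TopHat2 2.0.14, featureCounts 1.4.6, SAMtools 0.1.19, bcl2fastq 2.17.1.14 and Picard 2.2.4. How strand was handled is not given in the sources used here. Promoter coordinates are those of GRCm38.p6 and were matched by symbol.

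Each symbol was taken at its model with the highest summed count. Genes passing edgeR's expression filter went, after TMM scaling, into the quasi-likelihood test of edgeR 4.0.16 under R 4.3.3. Benjamini-Hochberg adjustment ran over all genes of a fit, and adjusted p under 0.05 passed. Title style was a covariate in BAT and in the interaction, not in WV or in the tissue fit (4 groups, 21 libraries). Log2 CPM used a prior count of 2. Alternatives were other scalings, other filters, DESeq2 1.42.0, limma 3.58.1 (voom), other covariates, single title styles and each library left out. The steps were also run on counts simulated with known changes. Those counts held no difference between title styles, and the outcome is not given here. Replicates all differed beyond sampling noise (the smallest chi-square per gene was 30.4). Counts are sums of reads without molecular identifiers.

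The members, the gene lists and the marker lists were chosen with earlier results of these data known, and nothing here is independent support for those. All 10 members were named in every comparison, of each list up to 3 genes that passed with the smallest p (or 1 that did not), and the 5 genes most like Pnpla2 and Plin1, of which 1 is not reported here. Of 3 blood markers, 2 were found, and all other markers were found in the files. Their sums in BAT were 463.3 to 703.4 CPM for endothelial, 35.4 to 78.9 for macrophage, 230.7 to 483.3 for preadipocyte and fibroblast and 20.6 to 96.5 for blood markers. In WV they were 160.5 to 343.7, 24 to 98.4, 334.9 to 1152 and 8.74 to 26 CPM.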

Additional observations from a re-analysis of the deposited data

Results flagged for a closer look

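In 5 of 40 gene and group combinations, 1 library lay far from the others of its group by a test of gaps that chance passes in about 1 of 20 groups. Aqp7 was at 282.1 CPM in floxed BAT library 2, where the next of the 5 was at 226.5 CPM. In muscle, Aqp7 was at 13.87 CPM in BATI4KO library KO_5492 (next 8.55 CPM) and at 10.61 CPM in floxed library FX_5514 (next 8.62 CPM). G0s2 was at 15.14 CPM in the same muscle library KO_5492 (next 7.17 CPM) and at 17.81 CPM in floxed library FX_5413 (next 8.52 CPM). The glycerol channel and the lipase inhibitor were thus both highest in KO_5492 among BATI4KO muscle libraries. So were Mgll, Abhd5, Plin1, Cidec and Fabp4, while Pnpla2, Lipe and Plin5 were highest in KO_5495. KO_5492 also had the highest adipocyte score of these libraries (0.98) and the largest share of counts in the members (0.0405%).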

How the results depend on the processing

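All 10 tissue differences kept their direction and call in both genotypes under every alternative, each library left out included. With tags as a replicate block, possible for 8 libraries, all 10 members again passed in each genotype and none by the interaction. With the short numbers as a replicate block in BAT 0 members passed, and 2 genes against 7. Same-numbered libraries did not all deviate together (correlations -0.12 to 0.14), so the numbers were not taken as pairs. No member passed between genotypes in BAT or WV under any alternative but DESeq2, where 1 did in BAT, Cidec at -0.32. Genes passing ran from 0 to 372 in BAT (1 to 16 with a library left out), 0 to 111 in WV (0 to 11) and 0 to 55 for the interaction (3 to 30), highest with DESeq2 in each; for title style, 2 members and 656 genes passed in floxed libraries alone and 3028 in BATI4KO libraries alone, and 6 to 9 members with a library left out.

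These differences, none of which passed, turned in sign; the cause was not tested. In BAT, Lipe was at 0.014 with upper-quartile scaling, 0.11 with library totals, 0.087 with short numbers only and 0.0090 with the muscle score. G0s2 was at 0.040 with upper-quartile scaling, 0.14 with library totals, 0.016 with a filter of 1 CPM, 0.023 with voom, 0.11 without title style, 0.018 with the replicate block, 0.12 with long tags only and 0.046 with the muscle score. Library totals gave Plin5 0.041 and Aqp7 0.038, short numbers only gave Plin5 0.087, long tags only gave Plin1 -0.029 and the muscle score gave Mgll 0.034. In WV, Mgll was at -0.096 with library totals, and Pnpla2 at -0.16 and Plin1 at 0.37 with the adipocyte score. For the interaction, Plin5 was at 0.046 with upper-quartile scaling, 0.21 with library totals, 0.0073 with voom and 0.033 with the replicate block. Library totals gave Mgll 0.064, Fabp4 0.13 and Aqp7 0.021 there, long tags only gave Fabp4 0.0030, and the replicate block gave G0s2 -0.40. Leaving out 1 library gave, in BAT, G0s2 -0.11 to 0.14 and Lipe -0.086 to 0.013. In WV it gave Abhd5 -0.11 to 0.068, Aqp7 -0.094 to 0.17, G0s2 -0.78 to 0.0034, Mgll -0.13 to 0.12, Plin5 -0.40 to 0.25 and Pnpla2 -0.18 to 0.32. For the interaction it gave Fabp4 -0.27 to 0.084, G0s2 -0.024 to 0.77, Plin5 -0.36 to 0.29 and Pnpla2 -0.50 to 0.019. Without the 2 farthest libraries, r with the adipocyte score was -0.0052 for Lipe, 0.18 for Mgll and 0.30 for Plin5. Plin1 and Cidec in muscle rest on as few as 3 counts, which limits their differences there.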
